A study of Mus musculus with 2 samples.

Results

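Enterocytes, the absorptive cells that line the intestinal villi, made up 0.998% of the 12824 barcodes kept from the primary tumour library of the ID8 ovarian cancer series: 103 barcodes without and 25 with 1 UMI of Ptprc. Both libraries together kept 27732 barcodes. A barcode tags the contents of 1 droplet, and a UMI (unique molecular identifier) tags 1 captured mRNA molecule. The enterocyte barcodes were chosen by measured values: at least 50 UMIs of Fabp2 and Apoa1 together per 10000 UMIs and at most 1 UMI of Ptprc, the leukocyte antigen CD45, among barcodes with at least 250 genes and at most 20% of UMIs from mitochondrially encoded genes. The other 12696 kept primary barcodes are the comparison. Both libraries came from mice with tumours of ID8, a mouse ovarian surface epithelial cancer line, the chemoresistant tumours after cisplatin, a platinum compound that damages DNA, and the primary tumours without treatment. In both, tumour tissue was minced, digested with type II collagenase and cleared of erythrocytes, and the suspensions of a tumour group were pooled into 1 library with 10x Genomics 3′ v3 chemistry. The labels give the tissue as solid tumour, do not give the number of mice in a pool, and name no intestine. With 1 library a group there is no replicate, so no test between groups was possible and the values below are descriptions. Exact Poisson intervals (for UMI sums) and exact Clopper-Pearson intervals (for shares of barcodes) are at 95% and cover counting error only.

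Enterocytes take up lipids, sugars, peptides, minerals and, in the ileum, bile salts through a brush border of microvilli. Fatty acids are bound in the cytosol by Fabp1 and Fabp2, re-esterified to triglyceride at the endoplasmic reticulum and exported as chylomicrons built on Apob with Apoa1 and Apoa4. Fabp1 is known for the proximal small intestine, where fat is absorbed, and Fabp6, the ileal bile acid binding protein, for the distal end, where Slc10a2 takes bile salts back up. Enterocytes are made in the crypts and move up the villus over their life, and they change their genes on the way from antimicrobial ones at the villus base to transport and apolipoprotein genes higher up.

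The chemoresistant library held 16390 deposited barcodes with 158118781 UMIs, and the primary library 14390 with 141334623. Enterocyte barcodes were deep, with 510 to 119053 UMIs and a median of 12524.5, against a median of 5719.5 in the other barcodes. Their median number of genes was 3581.5, against 2290.0, and their median mitochondrial share was 6.47%, against 2.49%. None of them was called a doublet (2 cells in 1 droplet) by Scrublet, which called 304 of the kept primary barcodes (2.37%). The libraries shared 52 barcode sequences, and none of them was an enterocyte barcode. The same rule found 3 of 14908 kept barcodes in the chemoresistant library, 0.0201% (0.00415 to 0.0588), against 0.998% (0.833 to 1.19) in the primary library.

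The chosen barcodes held 51.5 to 1020 UMIs of Fabp2 and Apoa1 per 10000 (median 289), which the rule fixes. The 5 barcodes just inside the limit had 51.5, 51.5, 57.4, 58.8 and 59.9, and the 5 just outside had 46.2, 45.5, 41.3, 40.7 and 40.5. With Ptprc within its limit, 56 barcodes lay between 20 and 50, 22 between 50 and 100, and 82 above 200. Among the enterocyte barcodes, 1 had no Fabp2 UMI and 1 no Apoa1 UMI. A further 40 kept barcodes passed the Fabp2 and Apoa1 limit but held more than 1 Ptprc UMI and count among the other barcodes. They were deep (median 28904 UMIs), their median Ptprc count was 3 UMIs or 1.45 per 10000, against 8.12 per 10000 in 7380 barcodes of leukocyte classes, and 1 was called a doublet. A limit of 1 UMI is stricter for a deep barcode. The median level of enterocyte genes in all other barcodes is therefore given with and without these 40. The gene-by-gene comparison of enterocyte and other barcodes counts them among the others.

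The enterocyte barcodes also held other absorptive genes. The 26 summed here are list genes outside the rule, picked for at least 500 CPM (UMIs per 1000000 over the summed barcodes) in enterocyte barcodes and at least 32-fold over the others, so a high sum there and a low one elsewhere follow from the choice, and the values are a description. The sum had a median of 337 UMIs per 10000 in enterocyte barcodes, with a 5th percentile of 77.3 and a highest value of 762. In the other barcodes the median was 0 and the 99th percentile 37.5. The sum reached 50 in 124 enterocyte barcodes, lay between 20 and 50 in 1 and under 20 in 3. Across the enterocyte barcodes the sum and the rule's value had a Spearman correlation of 0.58, and both share the barcode's total UMIs.

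**Figure D1:**
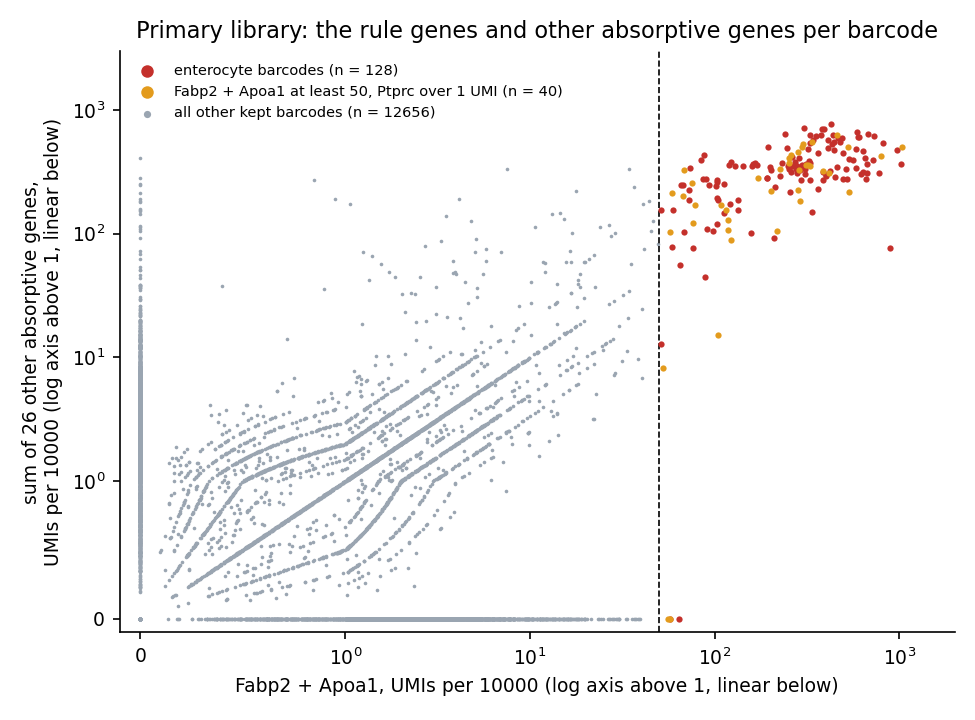
UMIs of Fabp2 plus Apoa1 per 10000 (x, the rule) against the sum of 26 other absorptive genes, picked for their level in enterocyte barcodes, per 10000 (y) for each kept primary barcode, on axes that are logarithmic above 1 and linear below. Red points are the enterocyte barcodes, orange points the 40 barcodes with more than 1 Ptprc UMI and grey points the other 12656, and the dashed line marks the limit of 50; most red and orange points lie above 50 on the y axis, while most grey points lie under 10.

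Other cell types of the gut were rare among the UMIs of these barcodes. The epithelial genes Epcam, a cell adhesion molecule, Cldn7, a tight junction protein, and Krt20, a keratin of differentiated gut epithelium, stood at 1875 against 62.0 CPM, 1257 against 35.6 CPM and 834 against 14.0 CPM in enterocyte and other barcodes (CPM). The stem cell list had 23 UMIs in all, with Olfm4 and Ascl2 at 0, and 5 cell cycle genes, Mki67 among them, summed to 18.1 CPM against 255 CPM in other barcodes. Paneth cell genes had 37 UMIs with Defa17 and Mmp7 at 0, tuft cell genes 23 with Il25 at 0, and enteroendocrine genes 123, of which Sct (secretin) and Chga (chromogranin A) held 62 and 50. The hepatocyte list, relevant because liver also makes Apoa1 and Fabp1, had 17 UMIs with Alb, Serpina1a and Fgb at 0. The pancreatic acinar list was lower than in the other barcodes, at 65.0 against 524 CPM. Of the colon genes, the carbonic anhydrase Car1 was at 0 and the chloride exchanger Slc26a3, which ileum also uses, at 144 against 2.88 CPM. A count of 0 in the summed barcodes allows up to 3 UMIs, and these lists say only which RNA was counted.

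Goblet cell RNA was concentrated in a pair of barcodes. Zg16, a lectin of mucus granules, had 10458 UMIs, of which 96.9% came from 2 barcodes of 92471 and 73471 UMIs, and the same 2 held 625 of the 675 UMIs of Muc2, the gel-forming mucin. Neither was called a doublet. In all, 24 barcodes held more than 20 per 10000 UMIs of another cell type's list: 9 of fibroblast, 6 of goblet, 4 of mononuclear phagocyte, 2 of neutrophil, 2 of acinar, 1 of B lineage and 1 of tumour or mesothelial genes, with 1 barcode on more than 1 list. The other 104 did not, and results that change without these 24 are given both ways.

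Before the expression values, the sequences just before the start sites of 4 genes that carry the findings are shown: Fabp2, which chose the cells, Fabp1 and Fabp6, which split them, and Slc10a2, which moved with Fabp6. Each is the 250 bases before the RefSeq start on build GRCm38.p6 (mm10), read on the gene's strand, at chr3:122894822-122895071 (+), chr6:71199629-71199878 (+), chr11:43601563-43601812 (−) and chr8:5105288-5105537 (−). Capitals mark matches on either strand to 4 motifs of gut transcription factors: TTTATNG for the CDX family, CAAAGTC for the HNF4 core, GTTAAT for part of an HNF1 site and AGATAA for GATA factors. Of 32851 RefSeq windows of the same length, 9.81% held the CDX motif, 3.84% the HNF4 core, 6.43% the HNF1 motif and 9.99% the GATA motif.
Fabp2: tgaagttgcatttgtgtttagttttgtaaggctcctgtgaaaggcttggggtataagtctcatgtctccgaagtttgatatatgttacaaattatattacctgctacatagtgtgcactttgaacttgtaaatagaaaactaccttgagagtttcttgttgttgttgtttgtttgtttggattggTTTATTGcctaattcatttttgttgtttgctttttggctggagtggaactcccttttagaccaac
Fabp1: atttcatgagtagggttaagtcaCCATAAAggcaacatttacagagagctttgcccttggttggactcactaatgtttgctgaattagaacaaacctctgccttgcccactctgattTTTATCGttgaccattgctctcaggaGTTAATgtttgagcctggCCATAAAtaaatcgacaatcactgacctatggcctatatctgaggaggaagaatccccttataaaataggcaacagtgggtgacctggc
Fabp6: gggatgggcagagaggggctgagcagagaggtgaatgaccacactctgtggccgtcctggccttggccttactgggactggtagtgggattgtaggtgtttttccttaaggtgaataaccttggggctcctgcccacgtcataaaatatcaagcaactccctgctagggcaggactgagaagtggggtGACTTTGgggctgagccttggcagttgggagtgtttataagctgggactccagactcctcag
Slc10a2: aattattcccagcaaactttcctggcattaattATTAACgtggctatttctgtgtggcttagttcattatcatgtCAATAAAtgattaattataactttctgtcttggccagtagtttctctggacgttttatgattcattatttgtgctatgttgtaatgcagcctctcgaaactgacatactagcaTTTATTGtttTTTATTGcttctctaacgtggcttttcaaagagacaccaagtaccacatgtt
The Fabp2 window held 1 CDX match, the Fabp1 and Slc10a2 windows 3 CDX matches and 1 HNF1 motif each, and the Fabp6 window 1 HNF4 core. These are matches of letters, not sites shown to be bound, and a motif missing from a window says only that its letters are not there.

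Against the other primary barcodes, the enterocyte barcodes carried most of the absorptive repertoire. Of 150 genes on 12 absorptive lists that reached 20 CPM in either set, 106 were at least 4-fold higher in enterocyte barcodes and 0 at least 4-fold lower, with a median log2 ratio of 3.18 (20 CPM added to both sides of every ratio). Over all 8488 genes that reached 20 CPM, 5.54% were at least 4-fold higher, 4.48% at least 4-fold lower, and the median log2 ratio was -0.41. Fabp2 and Apoa1, the genes of the rule, count among the 150 and the 106. The other barcodes here include the 40 with more than 1 Ptprc UMI. Without those 40, Fabp1 in the others stood at 22.1 rather than 105 CPM, Rbp2 at 19.0 rather than 79.5 and Sis at 12.3 rather than 39.7. The counts past 4-fold were not computed without them. Barcodes chosen for Fabp2 and Apoa1 had to differ from the rest in whatever travels with those genes, so the ratios describe the chosen barcodes and support no claim about them. Of the 25 genes with the largest ratio, 19 were on the lists, and the 6 that were not were Guca2b, which encodes the hormone uroguanylin (4022 against 48.8 CPM), the lectin-like Clec2h, Prap1, the trypsin inhibitor Spink1, Clca4b and Tm4sf5, at log2 ratios of 4.96 to 5.88.

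Fatty acid binding genes were the most abundant of the programme. Fabp2, which hands fatty acids across the cytosol and was part of the rule, stood at 26374 CPM (26196 to 26553) against 279 CPM (276 to 281), and its share per barcode ran from 0 over a median of 172 to 820.1 UMIs per 10000. Fabp1, its liver-type relative, stood at 10681 CPM (10568 to 10794.5) against 105 CPM, with a UMI in 82.0% of enterocyte barcodes. Fabp6 stood at 10599 CPM (10486 to 10712) against 269.8 CPM. Acsl5, which activates long-chain fatty acids (1149 against 64.9 CPM), Slc27a4, a fatty acid transport protein (258 against 10.7 CPM), and Npc1l1, the cholesterol uptake protein blocked by ezetimibe (263 against 3.73 CPM), completed the 6 of 9 genes past 4-fold. The scavenger receptors Cd36 (38.8 against 141 CPM) and Scarb1 (5.63 against 34.1 CPM), which macrophages also express, were lower than in the other barcodes, within 4-fold.

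For triglyceride resynthesis and chylomicron assembly, 14 of 17 genes were at least 4-fold higher. Apoa4, an apolipoprotein made on fat feeding, stood at 1713 CPM (1668 to 1759) against 19.2 CPM, and Apob, the structural protein of the particle, at 1384 CPM (1343 to 1425) against 15.5 CPM. Apoa1, part of the rule, stood at 11619.8 against 145 CPM, and Apoc3, which lies between Apoa1 and Apoa4 on chromosome 9 and slows triglyceride clearance, at 849.7 against 9.61 CPM. Mttp, which loads lipid onto Apob, stood at 1097 against 16.7 CPM, Mogat2, which re-esterifies monoglyceride, at 291 against 4.29 CPM, and Dgat1, which makes triglyceride, at 783 against 54.3 CPM. Plin2, a lipid droplet coat protein, was the only one of the 17 below its level in the other barcodes, at 165 against 294 CPM. By contrast 1 of 13 genes of fatty acid oxidation and ketogenesis passed 4-fold, and the list's median log2 ratio was 1.36. Cpt1a, which admits fatty acids to mitochondria, stood at 62.2 against 74.5 CPM.

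All 20 brush border hydrolases that reached 20 CPM were at least 4-fold higher. The disaccharidase Sis stood at 2923 CPM (2865 to 2983) against 39.7 CPM, its relative Mgam at 1507 against 25.6 CPM, and Lct, the milk sugar enzyme lactase, at 244 against 3.88 CPM. The peptidases Anpep and Dpp4, which trim peptides at the cell surface, stood at 1528 against 29.4 CPM and 796 against 70.5 CPM. Alpi, intestinal alkaline phosphatase, stood at 191 against 2.21 CPM, and Treh, which splits trehalose, was the least raised of the 20, at 89.8 against 1.02 CPM and a log2 ratio of 2.38.

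Sugar and peptide uptake genes followed. Slc5a1, the sodium-coupled glucose transporter, stood at 1526 CPM (1483 to 1569) against 18.5 CPM, with a UMI in 87.5% of enterocyte barcodes and a highest share of 49.2 per 10000. The fructose transporter Slc2a5 stood at 163 against 1.84 CPM, the basolateral glucose transporter Slc2a2 at 194 against 2.26 CPM, and the fructose-metabolising enzyme Khk at 552 against 27.2 CPM. Of 9 sugar genes 6 passed 4-fold, and G6pc, the last enzyme of glucose release, was among the 3 that did not (26.9 against 0.150 CPM). The 20 CPM added to each side holds down the ratio of genes as low as this. Of 11 peptide and amino acid transporters 6 passed, with the peptide transporter Slc15a1 at 353 against 3.76 CPM and the neutral amino acid transporter Slc6a19 at 296 against 3.47 CPM. Slc3a2, a transporter subunit that most cells use, stood at 262 against 159 CPM.

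Mineral and vitamin genes were uneven. Rbp2, which carries retinol in enterocytes, was among the most abundant genes at 8309 CPM (8209 to 8409) against 79.5 CPM. Cubn and Amn, subunits of the receptor for vitamin B12 bound to intrinsic factor, stood at 318 against 5.59 CPM and 193 against 3.62 CPM, and Heph, an iron oxidase, at 249 against 5.89 CPM. The iron uptake reductase Cybrd1 had 1 UMI, the calcium channel Trpv6 0, and the iron exporter Slc40a1, which macrophages also use, 2.81 against 35.6 CPM. S100g, the duodenal calcium carrier, stood at 11.3 CPM.

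All 4 bile acid genes that reached 20 CPM passed 4-fold. Slc10a2, the apical bile salt uptake transporter, stood at 124 against 2.45 CPM, and Slc51a and Slc51b, the subunits of the basolateral exporter, at 528 against 13.0 CPM and 367 against 7.88 CPM. Nr1h4, the bile acid receptor FXR, stood at 116 against 11.7 CPM. Fgf15, the ileal hormone that curbs bile acid synthesis in the liver, did not reach 20 CPM in either set, at 12.8 against 0.383 CPM.

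Microvillus genes were 4-fold higher for 12 of 15, led by the actin bundlers Pls1 (1357 against 18.0 CPM) and Vil1 (1172 against 17.6 CPM). Ezr, a membrane linker used by many cells, stood at 795 against 303 CPM. Of 14 transcription factor genes 8 passed 4-fold. Hnf4g and Hnf4a, nuclear receptors that drive enterocyte genes, stood at 468 against 10.5 CPM and 196 against 5.86 CPM, and Cdx2, the intestinal homeobox factor, at 109 against 3.57 CPM. Gata4, known for the proximal gut, stood at 95.4 against 68.0 CPM and Gata6 at a log2 ratio of -0.06.

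Xenobiotic genes passed 4-fold for 15 of 19, with the glutathione transferase Gsta1 at 836 against 13.2 CPM, and the cytochromes Cyp3a13 and Cyp3a11 at 607 against 7.61 CPM and 296 against 3.16 CPM. Mucosal defence genes passed for 10 of 11. Pigr, which carries IgA across the cell, stood at 1977 CPM (1928 to 2026) against 42.5 CPM, and Ccl25, the chemokine that draws lymphocytes to the small intestine, at 764 against 38.1 CPM. The antibacterial lectins Reg3b and Reg3g stood at 6020.2 against 215 CPM and 2739.9 against 120.4 CPM, and Lypd8, which binds flagella, at 1644 against 62.2 CPM. The Reg3, Gsta, Ces and Cyp3a genes have close copies that may share reads, so their single values are uncertain.

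**Figure D2:**
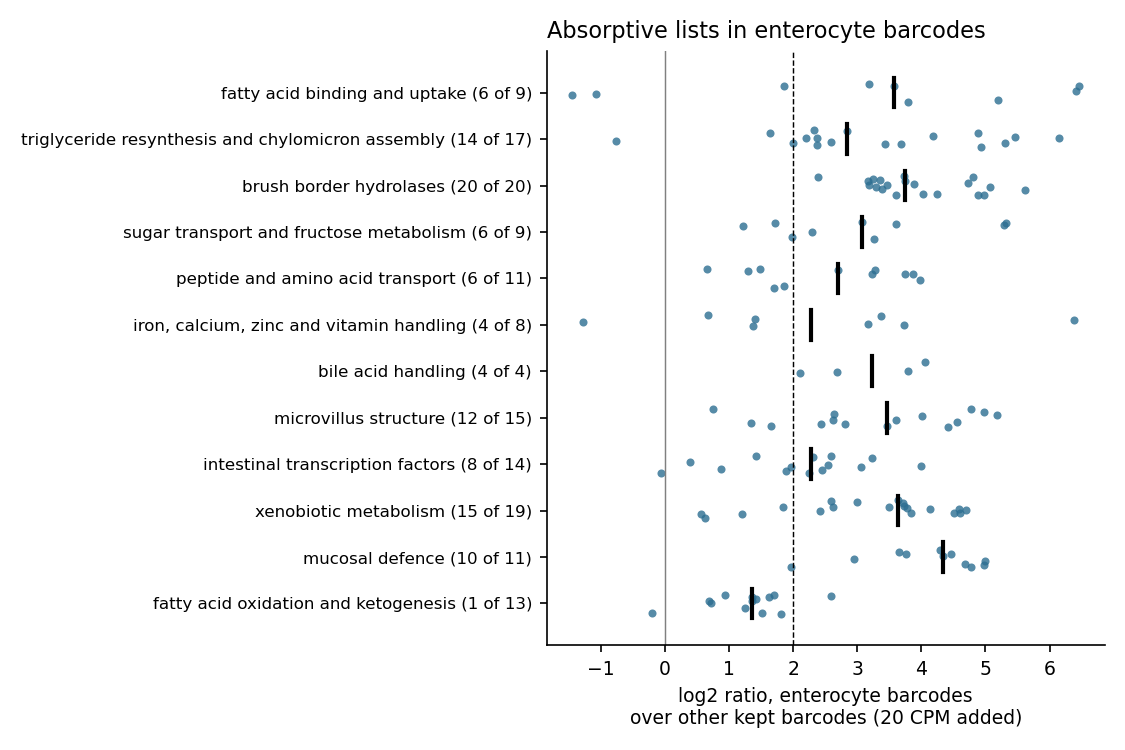
Log2 ratio of summed CPM in enterocyte barcodes over other kept primary barcodes (x, 20 CPM added to both) for each gene of the 12 absorptive lists that reached 20 CPM in either set (points, 1 row a list). Black bars are list medians, the dashed line marks 4-fold, and the count of genes past it stands beside each name; all 20 hydrolases lie right of the line and 1 of 13 oxidation genes does.

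Within the enterocyte barcodes, Fabp1 and Fabp6 were rarely high together, and with each ran a different set of transporters and enzymes. At a limit of 10 UMIs per 10000, 37 barcodes were Fabp6-high (28.9%, 21.2 to 37.6), 59 Fabp1-high (46.1%, 37.2 to 55.1), 11 high for both and 21 for neither. These are ranges of 2 values and not cell types: 10 barcodes had Fabp6 between 5 and 20 per 10000 and 27 had Fabp1 there. Fabp6 was 0 in 54 barcodes and reached 1002 per 10000 in the highest, and Fabp1 was 0 in 23 and reached 708. The median barcode had 130.0 Fabp6 and 2.35 Fabp1 per 10000 in the Fabp6-high range, and 0 Fabp6 and 149 Fabp1 in the Fabp1-high range. Across the 99 barcodes with at least 3000 UMIs the Spearman correlation of the pair was -0.60, and both values share the barcode's total. Depth differed, with medians of 10679 UMIs in Fabp6-high, 27499 in Fabp1-high and 2339 in the barcodes high for neither.

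**Figure D3:**
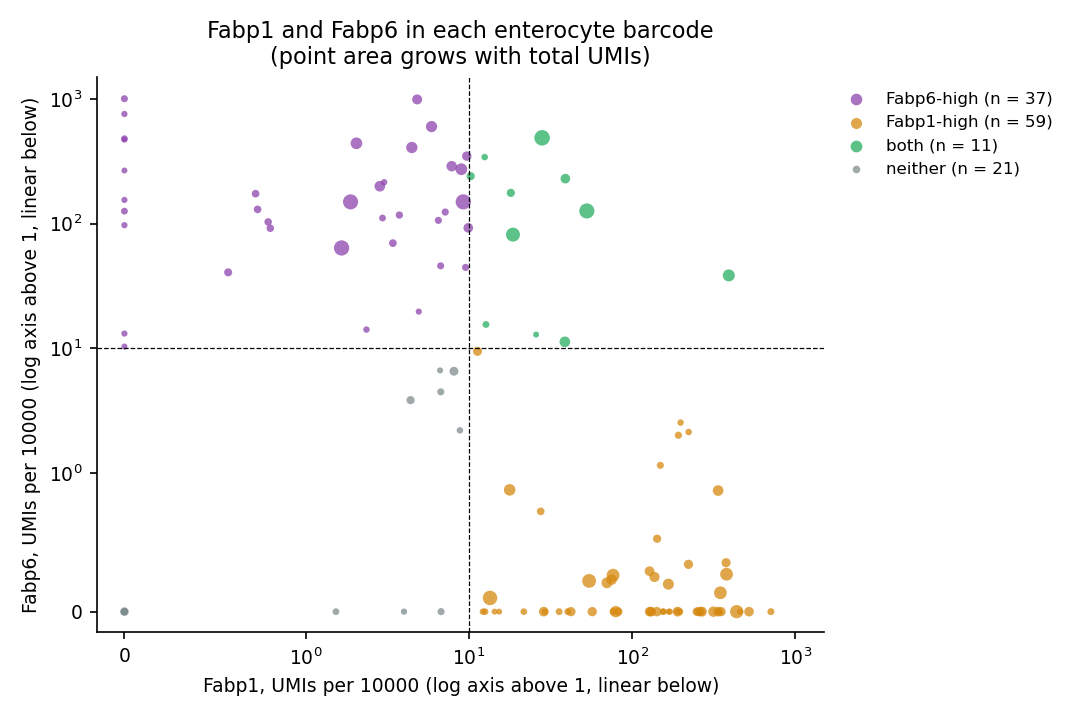
Fabp1 (x) against Fabp6 (y) in UMIs per 10000 for each enterocyte barcode, on axes that are logarithmic above 1 and linear below, with point area growing with total UMIs and dashed lines at 10. Purple marks the 37 Fabp6-high, orange the 59 Fabp1-high, green the 11 high for both and grey the 21 high for neither; 54 barcodes lie at 0 on the Fabp6 axis and 23 at 0 on the Fabp1 axis.

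Bile salt transporters and Reg3b were higher in the Fabp6-high range. Slc10a2 stood at 287 CPM in Fabp6-high against 9.24 CPM in Fabp1-high barcodes (254 to 323 and 5.17 to 15.2), a log2 ratio of 3.39, and its Spearman correlation with Fabp6 over the 99 deep barcodes was 0.65. It had a UMI in 64.9% of the Fabp6-high barcodes and in 11.9% of the Fabp1-high ones, although the Fabp1-high barcodes were deeper. The exporter subunits Slc51a and Slc51b stood at 977 against 212 and 585 against 184 CPM, and of 5 bile acid genes Slc10a2 and Slc51a passed 4-fold. Fgf15 had 31 UMIs in Fabp6-high and 0 in Fabp1-high barcodes. Reg3b stood at 11052 against 2529 CPM, and Reg3g, which stayed within 4-fold, at 4863 against 1286 CPM. Others past 4-fold were Tmigd1, an adhesion protein of the brush border (553 against 51.7), Gpx2, the gut glutathione peroxidase (1196 against 180.5), Gmds, an enzyme of fucose metabolism (1133 against 184), and the metallopeptidase Mep1a (396 against 57.9). Over all 6355 genes that reached 20 CPM in either range, 0.268% were at least 4-fold higher in Fabp6-high barcodes, 0.692% at least 4-fold lower, and the median log2 ratio was 0.02.

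Rbp2, Apoa4, Apoc2 and several detoxification genes were lower in the Fabp6-high range. Rbp2 stood at 1583 against 13507 CPM (1504 to 1666 and 13329 to 13687), a log2 ratio of -3.08, and had a UMI in 86.5% of Fabp6-high and 96.6% of Fabp1-high barcodes. Apoa4 stood at 304 against 2909.5 CPM, Apoc2, the activator of lipoprotein lipase, at 58.7 against 1452, the only pair of 17 chylomicron genes past 4-fold. Apob, the scaffold protein of chylomicrons, stood at 1451 against 1198 CPM (log2 ratio 0.27). Lct stood at 71.5 against 344 CPM, just within 4-fold. Of 19 xenobiotic genes 6 passed 4-fold, each of them lower, among them Cyp3a11 (20.3 against 515), the alcohol dehydrogenase Adh1 (98.1 against 752) and Gsta1 (164 against 1366). The sulfotransferase gene Sult6b2 had 0 UMIs in the Fabp6-high barcodes and 614 in the Fabp1-high ones, and Reg1, a secreted lectin, 3 and 3827. Reg1 was detected in 36 enterocyte barcodes, and its highest barcode held 16.2% of its UMIs. The goblet genes Zg16 and Fcgbp also stood far lower in Fabp6-high barcodes (log2 ratios of -6.14 and -4.83), but their UMIs came mostly from the goblet-rich barcodes, and without the 24 mixed ones the ratios were 0.07 and 0.13.

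Sis stood at 3144 CPM in Fabp6-high against 2731 CPM in Fabp1-high barcodes, a log2 ratio of 0.20, and Slc5a1 at 1388 against 1509 CPM, a log2 ratio of -0.12. The median log2 ratios of the sugar transport, peptide transport and fatty acid oxidation lists were -0.66, 0.38 and -0.41.

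Along the villus, the enterocyte barcodes spread over the whole landmark coordinate. The coordinate was the share of upper and tip landmark UMIs among these and bottom landmark UMIs, with landmarks taken from textbook zonation of the mouse villus, and 115 barcodes had the 10 landmark UMIs it needs. Their terciles held 39, 38 and 38 barcodes, with median coordinates of 0.136, 0.360 and 0.879 in the lower, middle and upper tercile. Over the 99 deep barcodes the bottom list had Spearman correlations of -0.26 with the upper and -0.33 with the tip list, while the upper and tip lists had 0.20 with each other. The middle list, which the coordinate did not use, stood at 2708, 2957 and 3429.9 CPM from the lower to the upper tercile, a log2 ratio of 0.34 (0.27 to 0.41). Region and depth moved with the coordinate: 20, 7 and 7 barcodes of the 3 terciles were Fabp6-high and 12, 30 and 14 Fabp1-high, and median UMIs were 30054, 16333 and 8231. The landmarks themselves differed between the ranges. Of 8 bottom genes, 1 (Reg3b) was at least 4-fold higher and 1 (Reg1) lower in Fabp6-high than in Fabp1-high barcodes. Of 4 upper genes, 1 (Apoa4) was lower. The coordinate sums UMIs, so these genes weigh unequally. Of 42003 bottom UMIs in enterocyte barcodes, Reg3b held 19250 and Reg1 4212. Of 12162 upper UMIs, Apoa4 held 5478. The coordinate was therefore not independent of region. The part of region and depth in the zone differences was not tested beyond the values within each range given here. The middle list's log2 ratio was 0.12 (−0.05 to 0.29) in Fabp6-high barcodes alone and 0.45 in Fabp1-high ones. The median over its 7 genes was lower, at 0.26 in all barcodes and -0.24 in Fabp6-high and 0.38 in Fabp1-high barcodes alone.

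Slc15a1, Cubn, Apoc2 and 5 other genes were higher in the upper tercile in all 6 settings compared. Among 6423 genes outside the landmarks that reached 20 CPM, 4.72% were at least 2-fold higher and 1.03% at least 2-fold lower in the upper than in the lower tercile, with a median log2 ratio of 0.11. Of the 993 with at least 500 UMIs, 49 were higher and 40 lower, and 8 and 32 of these were so in all 6 settings (all barcodes, Fabp6-high alone, Fabp1-high alone, and each without the 24 mixed barcodes). The settings share barcodes, and terciles were cut anew within each. Those of Fabp6-high barcodes alone compared 12 lower with 11 upper barcodes, and 11 with 10 without the mixed ones. Few UMIs stand behind some values there, such as Apoc2 at 35.4 and 212 CPM. The 8 were chosen after their values were seen. Slc15a1 stood at 249, 289.7 and 605 CPM in the lower, middle and upper tercile (223 to 277 in the lower and 553 to 661 in the upper tercile), and Cubn at 226, 292 and 503 CPM. Apoc2 stood at 209, 1549.8 and 1063 CPM, Xdh, which encodes xanthine dehydrogenase, at 191, 365 and 420.4 CPM, Selenop, a selenium carrier, at 708, 796 and 1839 CPM, and Clca4b at 776, 813 and 1776 CPM. The other 2 were Jun, an early response factor, at 349, 452 and 1009.6 CPM, and Ahnak, a large scaffold protein, at 229.6, 234 and 539 CPM. Lct stood at 99.8, 324 and 390.0 CPM, with log2 upper over lower ratios of 0.83 in Fabp6-high and 1.39 in Fabp1-high barcodes alone. Of 8 early response genes outside the landmarks, which tissue digestion can also induce, 6 were at least 2-fold higher in the upper tercile (summed 1581, 1823.5 and 4418 CPM), but their median log2 ratio was -0.18 in Fabp6-high and 1.10 in Fabp1-high barcodes alone.

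Ribosomal protein genes made up most of what was lower in the upper tercile, a group singled out after its values were seen. Of the 32 genes lower in all settings, 24 encoded ribosomal proteins, which made up 80 of the 993 genes compared (8.06%), such as Rpl13 at 2234, 1655 and 953 CPM. RNA quality values moved with the terciles too: the median mitochondrial share was 6.19, 7.12 and 7.96% in the lower, middle and upper tercile, and Neat1, a nuclear noncoding RNA, stood at 205, 321 and 597 CPM. The log2 upper over lower ratio of Neat1 was 1.45 in all, 2.69 in Fabp6-high and 0.76 in Fabp1-high barcodes alone. Lars2, which encodes the mitochondrial leucyl-tRNA synthetase, stood at 414, 597 and 1256 CPM, with ratios of 1.55, 2.27 and 0.65. The ratio of Rpl13 was -1.42 in Fabp1-high and -2.29 in Fabp6-high barcodes alone. The mitochondrial share of the terciles is given for all barcodes together only, not within each range. The part of the mitochondrial share, Neat1 and Lars2 in the ribosomal protein values was not tested. Others of the 32 included Gmds (1109.8, 233 and 109 CPM; log2 ratio -3.13), the inflammasome adaptor Pycard (356, 263 and 79.0 CPM), the keratin Krt19 (1637, 1006 and 607 CPM), the peroxidase Gpx1 (392, 461 and 148 CPM) and the galectin Lgals2 (901, 719 and 354 CPM). Fabp6 stood at 17498, 7396 and 3200.3 CPM, and 3 of 5 bile acid genes were at least 2-fold lower in the upper tercile, but that list's median log2 ratio of -1.01 became -0.13 among Fabp6-high and -0.05 among Fabp1-high barcodes.

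**Figure D4:**
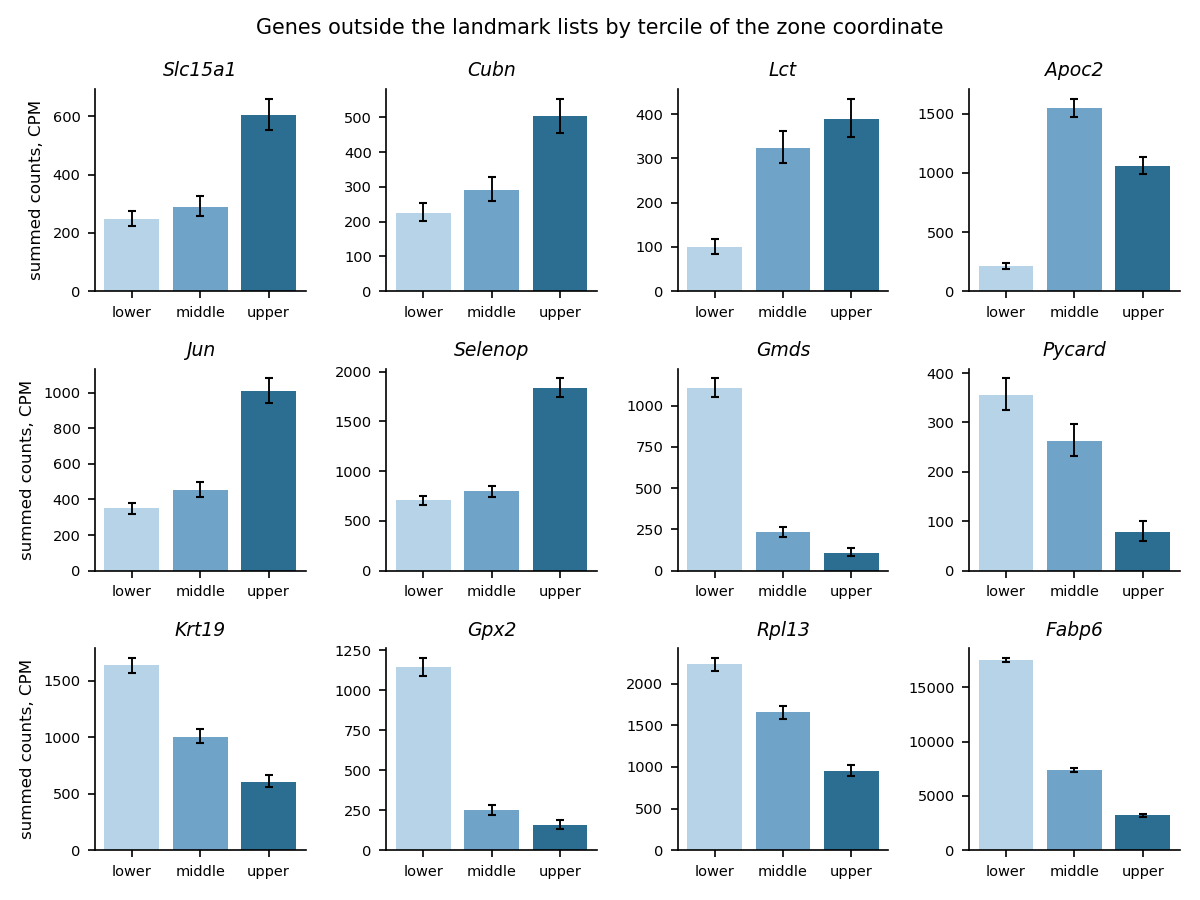
Summed counts in CPM (y, from 0) of 12 genes outside the landmark lists in the lower, middle and upper tercile of the zone coordinate (x; 39, 38 and 38 enterocyte barcodes), with exact Poisson 95% intervals as error bars. The first 6 genes stand higher and the last 6 lower in the upper than in the lower tercile. Apoc2, Gmds, Gpx2 and Fabp6 are among those that also differ at least 4-fold between Fabp6-high and Fabp1-high barcodes.

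The genes with the largest upper over lower ratios were a different set, and for 4 of the 10 largest the sign rested on 1 barcode. The 10 largest were Zg16, Sparc, Gstm2, Hspb1, Vim, Lgals1, Muc2, Gstm1, Tff3 and Gm20186, with log2 ratios of 2.39 to 4.72. For Zg16, Muc2 and Tff3, a trefoil peptide of mucus, the goblet-rich pair held 96.9%, 92.6% and 88.1% of UMIs. One upper-tercile barcode of 101069 UMIs, in the Fabp1-high range, held 60.7% of Hspb1 (a small heat shock protein), 57.3% of Gstm2 (a glutathione transferase), 51.7% of Gm20186 and 36.0% of Vim (vimentin, a mesenchymal filament). Leaving out the upper-tercile barcode with most UMIs of the gene gave -1.48 for Zg16, -1.46 for Muc2, -1.97 for Tff3 and -0.24 for Gm20186, against 4.72, 2.69, 2.58 and 2.39 with it. The other 6 stayed past 2-fold without it: Sparc, a matrix glycoprotein, at 3.23, Vim at 2.38, the galectin Lgals1 at 1.75, Gstm2 at 1.73, Hspb1 at 1.62 and Gstm1 at 1.60. The highest barcode held 23.0% of the UMIs of Sparc. In Fabp6-high barcodes alone, 7 of the 10 had negative ratios.

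RNA of enterocyte genes was also counted, at a low level, in every other class of primary barcodes, and in leukocytes most of the genes stood at a similar fraction of their enterocyte level. For this, 51 genes with at least 500 CPM in enterocyte barcodes and at least 32-fold over the others were followed, a limit that by itself caps their mean level elsewhere, and they held 8.87% of UMIs in enterocyte barcodes and 0.147% in the others. Of all their UMIs 40.9% lay outside the enterocyte barcodes: 21.6% in the 40 barcodes with more than 1 Ptprc UMI and 19.3% in the 12656 below the Fabp2 and Apoa1 limit. The median gene stood in the other barcodes at 1.61% of its enterocyte level, and at 0.750% without those 40. Below that limit the median ratio was 0.331% in neutrophils, 0.286% in mononuclear phagocytes, 0.237% in T and NK cells, 0.229% in B lineage cells, 0.186% in dendritic cells, 0.182% in endothelial cells, 0.149% in fibroblasts and 0.123% in adipocytes. It was higher in 56 tumour or mesothelial barcodes (0.635%) and in those of no class (1.18%). Over all 4831 barcodes of no class, 27 of them past the limit, it was 2.65%. The classes were rebuilt from marker lists and may differ from the study's own.

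Whether leukocytes themselves transcribe these genes was not tested. Over the primary leukocyte barcodes of 5 classes (7380, less those past the Fabp2 and Apoa1 limit) the median ratio was 0.278%, with quartiles of 0.226 and 0.366%, and 44 of the 51 genes lay within 2-fold of it. Fabp2 stood at 65.1 CPM in them (63.1 to 67.2), 0.247% of its enterocyte level, Apoa1 at 25.9 CPM or 0.223%, and Fabp6 at 26.5 CPM or 0.250%. In 7411 chemoresistant leukocyte barcodes the median ratio to the same enterocyte level was 0.00781%. A Fabp2 UMI was present in 0.0945% of chemoresistant leukocytes (0.0380 to 0.195; median depth 3272 UMIs), against 36.4% of primary ones (35.3 to 37.5; median depth 5714.5 UMIs). With each barcode thinned to 1500 UMIs, which left 5683 chemoresistant and 7123 primary leukocytes, the shares were 0.0176% and 11.0%. Across the 51 genes, the level in enterocytes and in primary leukocytes had a Spearman correlation of 0.77. Both levels came from 1 library, and the genes are not independent of each other. The fold limit that picked these genes caps their level elsewhere in proportion to their enterocyte level. It thus favours such a correlation and similar ratios. Across all other primary barcodes the correlation was 0.65. It was 0.49 for genes picked without that limit, by at most 2 CPM in the chemoresistant library. For those genes the median leukocyte ratio was 0.288% (quartiles 0.229 and 0.377%), and the leukocyte correlation was not computed.

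**Figure D5:**
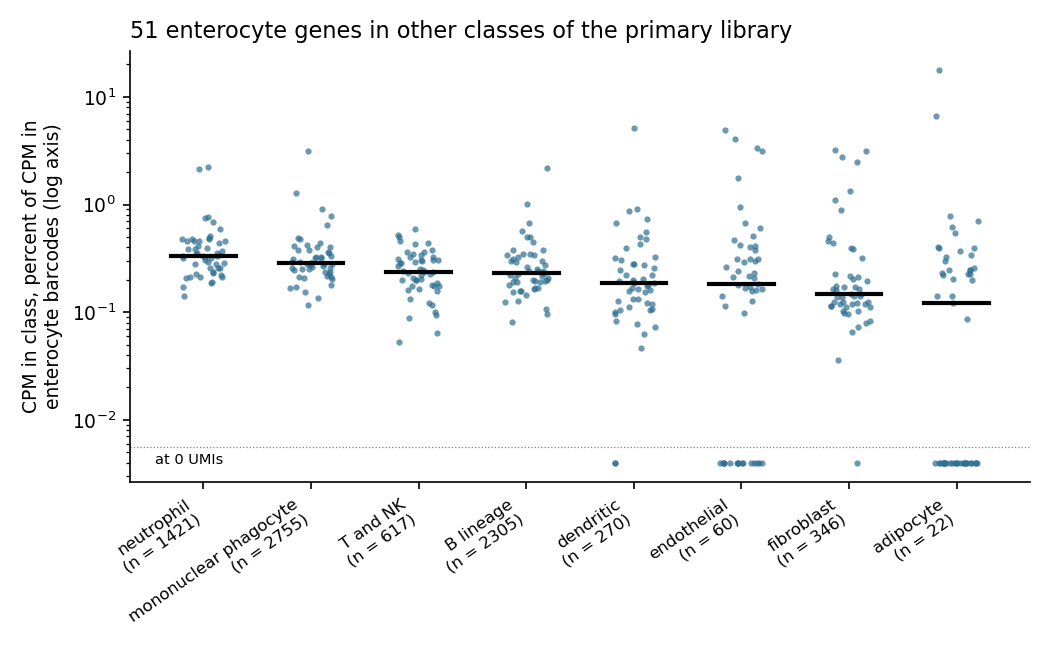
CPM in each class of other primary barcodes as a percent of CPM in enterocyte barcodes (y, log axis) for 51 enterocyte genes (points), with the barcodes of each class below the Fabp2 and Apoa1 limit given as n and medians as black bars. Points under the dotted line had 0 UMIs in the class. The medians of the 8 classes drawn lie between 0.123% in adipocytes and 0.331% in neutrophils; tumour or mesothelial barcodes and those of no class are not drawn.

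Some genes stood apart from the common ratio. The 5 lowest in leukocytes were Gsta1 (0.123%), Slc5a1 (0.162%), Clca4b (0.171%), Sis (0.174%) and Cyp3a13 (0.186%). The highest were Epb41l3, a membrane skeleton protein (1.91%), and Anpep, which myeloid cells also express (1.03%), and these stood at 29.2 and 11.4 CPM in chemoresistant leukocytes, where Fabp6 was at 0.299 CPM. Reg1 was high at 0.743% with 0 UMIs in chemoresistant leukocytes. Genes outside the 51 included the secreted products Reg3b (0.675%) and Reg3g (0.774%), both above the median of the 51. The ratio of Fabp6 to Fabp1 UMIs was 0.992 in enterocyte barcodes (0.977 to 1.01). Below the Fabp2 and Apoa1 limit it was 1.03 in B lineage (0.882 to 1.21) and 1.02 in dendritic barcodes (0.682 to 1.52). In neutrophil barcodes it was 0.817 (0.640 to 1.04) and in T and NK barcodes 0.685 (0.487 to 0.960). In mononuclear phagocyte barcodes it was 1.60 (1.45 to 1.77), and in barcodes of no class 11.6 (11.0 to 12.2). With barcodes past that limit included it was 8.16 in neutrophil, 0.787 in T and NK, 0.680 in mononuclear phagocyte and 2.82 in no-class barcodes. It stayed at 1.03 in B lineage and 1.02 in dendritic barcodes. Barcodes of no class held Fabp6 out of proportion to Fabp1 both ways. In 8 other barcodes with Ptprc within its limit Fabp6 itself reached 50 per 10000. Between all other barcodes of the libraries, 48 of the 51 genes had lower CPM in the chemoresistant than in the primary library, and the 3 that did not were Cda, Tm4sf5 and Maoa. Only 20 of the 51 reached 20 CPM there, 2 of which were at least 4-fold lower, beside 0.448% of all 7808 genes compared. The share of all genes lower by any amount was not counted, so the 48 have no background to be read against. The 51 were picked for their level in primary barcodes, and the primary side includes the 40 barcodes with more than 1 Ptprc UMI. The source of the enterocyte RNA in other barcodes was not tested.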

How the data were processed

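Single-cell RNA of 2 pooled libraries was measured with 10x Genomics 3′ v3 chemistry. The deposited matrices hold UMI counts as whole numbers, made by the authors with Cell Ranger 8.0.1 on mm10, per the submitters' processing notes. The matrices list 33696 genes, their smallest barcode holds 500 UMIs, and the labels do not say how barcodes were called.

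Barcodes under 250 genes or over 20% mitochondrial UMIs were left out: the mitochondrial limit removed 427 chemoresistant and 1483 primary barcodes, and the gene limit a further 1055 and 83. Doublets were scored with Scrublet in scanpy 1.11.5 (expected rate 0.08) and kept. Counts were summed over barcodes and given as counts per 1000000 (CPM), and genes with at least 20 CPM in either set were compared by log2 ratio with 20 CPM added. Classes of other barcodes were rebuilt from marker lists: a barcode needed 3 UMIs of a class list, and that list had to hold 75% of its UMIs over the class lists. Named genes are those of the lists, the 25 largest ratios, the 10 largest zone ratios each way among genes with 500 UMIs, and the free-RNA genes with most UMIs or farthest from the median; genes outside this rule were chosen after their values were seen. The members, lists and alternatives were chosen with earlier results of these data known. Promoter windows came from RefSeq sequences on GRCm38.p6 and gene positions from the reference annotation. Calculations used Python 3.11.15, numpy 2.4.6, scipy 1.17.1, pandas 2.3.3 and matplotlib 3.10.9, and were checked on simulated data. Alternatives changed the limits of the rule, the quality limits, doublets, the scaling, the value added, the landmark minimum, depth and the barcodes compared. No p-value is given, since each group is 1 library. Precision is set by UMI counts: 3197556 UMIs in enterocyte barcodes and 133034182 in the others. Values of a few single genes of the lists are not reported here, though the list counts include them.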

Additional observations from a re-analysis of the deposited data

Results flagged for a closer look

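Barcodes that the mitochondrial limit removed, and that no comparison uses, also held enterocyte RNA. Over the limit, 2 of 427 chemoresistant barcodes reached 50 UMIs of Fabp2 and Apoa1 per 10000 (0.468%, 0.0568 to 1.68), and 70 of 1483 primary barcodes did (4.72%, 3.70 to 5.93). The mitochondrial share of the 70 ran from 20.3 to 88.7% with a median of 57.2%, their median depth was 2702 UMIs, and all 70 had Ptprc within its limit. The 26 other absorptive genes summed to a median of 136 per 10000. Of the 70, 3 were Fabp6-high, 30 Fabp1-high, 1 high for both and 36 for neither. Per 1000000 non-mitochondrial UMIs, Apoa4 stood at 6065 in the removed and 1876 in the kept enterocyte barcodes, Lct at 937 and 267, and Ada, an enzyme of purine breakdown known from the villus tip, at 143 and 26.7. Fabp6 stood at 1648 and 11603, and Reg3b at 1152 and 6591. Sis stood at 3062 and 3201. The shares of region and zone given for the kept barcodes therefore leave out a set in which Fabp1-high barcodes outnumbered Fabp6-high ones 30 to 3.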

How the results depend on the processing

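The number of enterocyte barcodes lay between 97 and 184, the count of absorptive genes past 4-fold between 106 and 123 and the Fabp6-high share between 22.8 and 32.7% under the alternatives run. The middle list's summed log2 ratio (0.34) stayed positive, though its median over genes was −0.24 in Fabp6-high barcodes alone (0.26 in all): 0.42 and 0.46 at 20 and 100 Fabp2 and Apoa1 UMIs per 10000, 0.26 at 0 Ptprc UMIs, 0.61 thinned to 1500 UMIs, and 0.12 and 0.45 in Fabp6-high and Fabp1-high barcodes alone. The median ratio of enterocyte genes in other barcodes (1.61%) was 2.24% at 0 Ptprc UMIs, 1.47% at 10% mitochondrial UMIs, 0.357% in barcodes of at most 5 Fabp2 and Apoa1 UMIs per 10000 and 0.750% without the 40 Ptprc barcodes. The planned stricter fold limit on the enterocyte genes left no gene. Single zone ratios turned negative for Zg16 and Tff3 (−0.11 and −0.36) at 20 per 10000, and for Gm20186 (−0.31) at 100. Thinned, Zg16, Gstm2, Muc2 and Tff3 gave −1.23, −0.26, −1.03 and −0.85, and without the mixed barcodes Muc2 gave −0.37. In Fabp6-high barcodes alone Sparc, Gstm2, Hspb1, Vim, Lgals1, Muc2 and Gm20186 gave −1.40, −1.30, −0.53, −2.20, −0.87, −0.18 and −2.14, and in Fabp1-high ones Zg16, Muc2 and Tff3 −0.30, −0.14 and −0.14. Without the highest upper-tercile barcode Zg16, Muc2, Tff3 and Gm20186 gave −1.48, −1.46, −1.97 and −0.24. Between the ranges, Zg16 and Fcgbp gave 0.074 and 0.13 without the mixed barcodes. The cause of these shifts was not tested, except that leaving out a barcode shows the weight of that barcode. Counts over the alternatives cover mainly the genes with the largest ratios. Among them, 250 of 250 enterocyte ratios, 151 of 160 range ratios and 202 of 240 zone ratios kept their direction and side of the fold limit. The enterocyte count holds only the 25 largest ratios (log2 4.88 to 6.47), with Fabp2 and Apoa1 of the rule among them. Genes picked so far past 4-fold could hardly fall below it. Other list genes were not in that count, and Slc15a1, Cubn and Apoc2 were not in the zone count. The alternatives by range, mixed barcodes, highest barcode and Ptprc barcodes, and all of those for the Fabp6-high share, were chosen after seeing the data. No paired analysis was possible because each group is 1 library with no replicate number. With barcodes from 1 pool, depth limits genes of low count, and how far mice differ is unknown.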

Other observations

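Some intestinal epithelial RNA lay outside the rule. Of the other primary barcodes, 73 had at least 100 UMIs per 10000 of the 26 absorptive genes, 40 with Ptprc over its limit and 33 within it. The 33 had a median of 2111 UMIs and a median of 0.847 Fabp2 and Apoa1 UMIs per 10000, with 27 under 20. Goblet genes exceeded 100 per 10000 in 14 of the 33 and Fabp6 reached 10 in 6. Over all other barcodes, 22 had goblet genes above 100 per 10000. The RNA of other classes was low in the enterocyte barcodes in turn: the B lineage list stood at 46.3 CPM in enterocyte barcodes against 7569.7 CPM in B lineage barcodes, and over the classes such lists reached 0.0783 to 3.66% of the class's own level.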
